A study of Mus musculus with 2 samples.

Results

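The genes described here encode the enzymes and binding proteins of thiol-based defence: glutathione transferases, glutathione peroxidases, peroxiredoxins, superoxide dismutases, thioredoxins, selenoproteins and metallothioneins, with the enzymes that make and reduce glutathione and the transcription factor NRF2 (Nfe2l2). They were taken by a rule on gene symbols, set with earlier results of these data known, and 83 of the 19494 genes with a named probe set matched. Expression was measured in astrocytes sorted from the ipsilateral cortices of male C.B-17/Icr-+/+Jcl mice with permanent middle cerebral artery occlusion (MCAO) at 7 weeks of age. MCAO + exercise mice had a running wheel for 15 days after MCAO, MCAO + non-exercise mice had none, and both groups had wheel pre-training for 1 week and injections of BrdU, a label of dividing cells, at 50 mg/kg/day. On postoperative day (POD) 15, cells of 2 or 3 mice per sort were caught on magnetic beads by an antibody to ACSA-2, which astrocytes carry on their surface. About 70 ng of RNA from each of 4 extracts per group was pooled for 1 Clariom S array per group, and no array came from mice without MCAO. The arrays are called the exercise array and the non-exercise array by their deposited labels. With 1 array per group, the spread between mice or extracts could not be measured, so no difference was tested and none has an error.

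Glutathione, a small thiol peptide, is made in the cytosol, used by transferases to conjugate electrophiles and by peroxidases to remove hydroperoxides, and returned to its reduced form by glutathione reductase. Thioredoxin and the peroxiredoxins form a parallel system, and several enzymes of both hold selenocysteine, an amino acid inserted at a recoded stop codon. In brain, astrocytes are a main store of glutathione and supply its precursors to neurons, and metallothioneins, small cysteine-rich proteins that bind zinc and copper, are abundant in them and inducible by injury. NRF2 drives many genes of these families through antioxidant response elements.

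The pi-class transferases Gstp1 and Gstp2 moved together on the arrays while their neighbour Gstp3 stayed below background, so the sequences just upstream of the 3 genes are shown first. Each window runs from 250 bases before to 50 bases after the start site in RefSeq, build GRCm38.p6, on the minus strand of chromosome 19, at chr19:4037863-4038162 for Gstp1, chr19:4042172-4042471 for Gstp2 and chr19:4059398-4059697 for Gstp3. Capitals mark TGANTCAGC, a site that joins an AP-1 element (TGANTCA) to the GC that follows it in antioxidant response elements, searched on both strands.
Gstp1: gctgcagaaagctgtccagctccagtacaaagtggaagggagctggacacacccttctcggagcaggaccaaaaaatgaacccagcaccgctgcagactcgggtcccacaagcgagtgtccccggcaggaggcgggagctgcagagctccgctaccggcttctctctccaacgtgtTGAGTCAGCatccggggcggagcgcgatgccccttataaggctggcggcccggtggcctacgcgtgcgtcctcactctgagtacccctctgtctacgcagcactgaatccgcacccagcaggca
Gstp2: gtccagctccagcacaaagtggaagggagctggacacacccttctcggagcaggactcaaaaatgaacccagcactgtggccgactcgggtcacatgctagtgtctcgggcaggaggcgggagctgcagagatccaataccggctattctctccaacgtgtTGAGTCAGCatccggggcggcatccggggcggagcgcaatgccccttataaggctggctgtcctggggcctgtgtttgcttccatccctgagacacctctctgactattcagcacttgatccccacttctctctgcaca
Gstp3: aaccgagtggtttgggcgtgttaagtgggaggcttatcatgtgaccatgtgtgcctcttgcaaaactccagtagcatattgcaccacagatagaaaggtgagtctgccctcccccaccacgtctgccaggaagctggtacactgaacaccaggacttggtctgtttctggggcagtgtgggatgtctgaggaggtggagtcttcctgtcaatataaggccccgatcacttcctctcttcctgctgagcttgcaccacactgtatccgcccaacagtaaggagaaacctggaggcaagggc
The Gstp1 and Gstp2 windows were identical at 242 of 316 aligned positions (76.6%) and both held the site, from base 177 in Gstp1 and from base 162 in Gstp2. Gstp3 matched Gstp1 at 51.2% and Gstp2 at 45.8% of aligned positions and had no match in this window. TGANTCAGC was in 390 of 32851 windows of this length (1.19%). It was in 5 of the 96 windows of the 76 redox genes with a window (5.21%), the other 3 being those of Mt2, Prdx1 and Srxn1. The antioxidant response element core TGACNNNGC, which overlaps it in part, was in 12.4% of all windows and in 15 of the 96 windows of the redox genes (15.6%). The Gstp1 and Gstp2 windows were not among these, so their marked site does not match that core. A match is a run of letters and not a bound site.

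The metallothionein genes lie next to each other on chromosome 8 and differed on the arrays, so 3 of their upstream windows are shown too, with capitals for the core of the metal response element, TGCACNC or TGCGCNC on either strand, which the zinc sensor MTF1 recognizes. All are on the plus strand of GRCm38.p6, at chr8:94178839-94179138 for Mt1, chr8:94172368-94172667 for Mt2 and chr8:94152357-94152656 for Mt3.
Mt1: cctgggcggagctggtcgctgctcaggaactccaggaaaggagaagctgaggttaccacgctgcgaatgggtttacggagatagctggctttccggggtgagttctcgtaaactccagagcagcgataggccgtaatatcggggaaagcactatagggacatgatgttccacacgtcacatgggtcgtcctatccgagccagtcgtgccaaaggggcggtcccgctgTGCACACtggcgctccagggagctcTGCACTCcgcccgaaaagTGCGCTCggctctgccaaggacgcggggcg
Mt2: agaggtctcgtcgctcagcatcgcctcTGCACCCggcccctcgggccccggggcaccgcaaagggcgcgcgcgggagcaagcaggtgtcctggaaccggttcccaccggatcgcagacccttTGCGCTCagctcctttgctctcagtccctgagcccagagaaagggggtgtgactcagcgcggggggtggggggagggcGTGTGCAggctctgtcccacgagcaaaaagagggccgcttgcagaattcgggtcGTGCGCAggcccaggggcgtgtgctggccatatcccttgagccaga
Mt3: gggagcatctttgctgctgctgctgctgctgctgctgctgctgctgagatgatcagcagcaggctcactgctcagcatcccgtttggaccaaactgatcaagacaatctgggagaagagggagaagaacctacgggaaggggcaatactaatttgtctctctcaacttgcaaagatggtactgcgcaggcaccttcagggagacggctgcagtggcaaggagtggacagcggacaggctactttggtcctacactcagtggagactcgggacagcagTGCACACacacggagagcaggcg
The core matched 3 times in the Mt1 window, 4 times in that of Mt2 and 1 time in that of Mt3. It was in 25.7% of all windows and in 31.2% of those of the redox genes.

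Of the 83 genes, 78 were above background on at least 1 array and were kept, and Gpx5, Gsto2, Gstp3, Gstt4 and Selenbp2 were not. Background was the 25th percentile of the named probe sets of each array, 5.08 on the log2 scale for the non-exercise array and 4.89 for the exercise array. Every difference below is the log2 intensity of the exercise array minus that of the non-exercise array. Genes past 1 or -1, the threshold of the study, are called higher or lower. These directions follow the deposited labels. For Gstp1, Gstp2 and Selenow, which the study lists as changed genes of these arrays, the sign is opposite to that in its lists. The same was so for Prxl2a and for the cell type markers Slc1a3, Aldoc, Mobp and Camk2a, which are used further below. The values of these arrays alone do not settle whether labels or lists were turned. Measurements of the study other than the arrays were not used here. Should the labels have been exchanged, every sign below turns with them.

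Higher by more than 1 were 6 genes, the selenoprotein gene Selenow, the metallothionein Mt3, the membrane-bound transferase Mgst3, the extracellular superoxide dismutase Sod3, and the pair Gstp2 and Gstp1. Lower by more than 1 were 2 genes, Mgst2 and Gpx2. The 6 of 78 were 7.69%, against 3.77% of all 15196 kept genes, and the 2 of 78 were 2.56%, against 2.36%. Selenow, Gstp1 and Gstp2 were known from the study to differ when the family was chosen, and without them 3 of 75 (4.0%) were higher. Of the 78 genes, 61 were above 0 (78.2%, against 53.5% of all kept genes), with a median difference of 0.32 against 0.04. Signals of at least 8 on the log2 scale went with higher differences in general. Among the 7423 kept genes of that level the median was 0.16, 65.3% were above 0, 4.94% were higher by more than 1 and 0.822% lower. The 52 redox genes of that level had a median of 0.36, with 86.5% above 0, 5 higher and 0 lower. Centring each array on its median moved the differences of all genes by -0.11, after which 5 redox genes were higher and 3 lower, and 52 of 78 were above 0. Over all kept genes, 2.85% were then higher, 3.78% lower and 44.2% above 0.

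**Figure D1:**
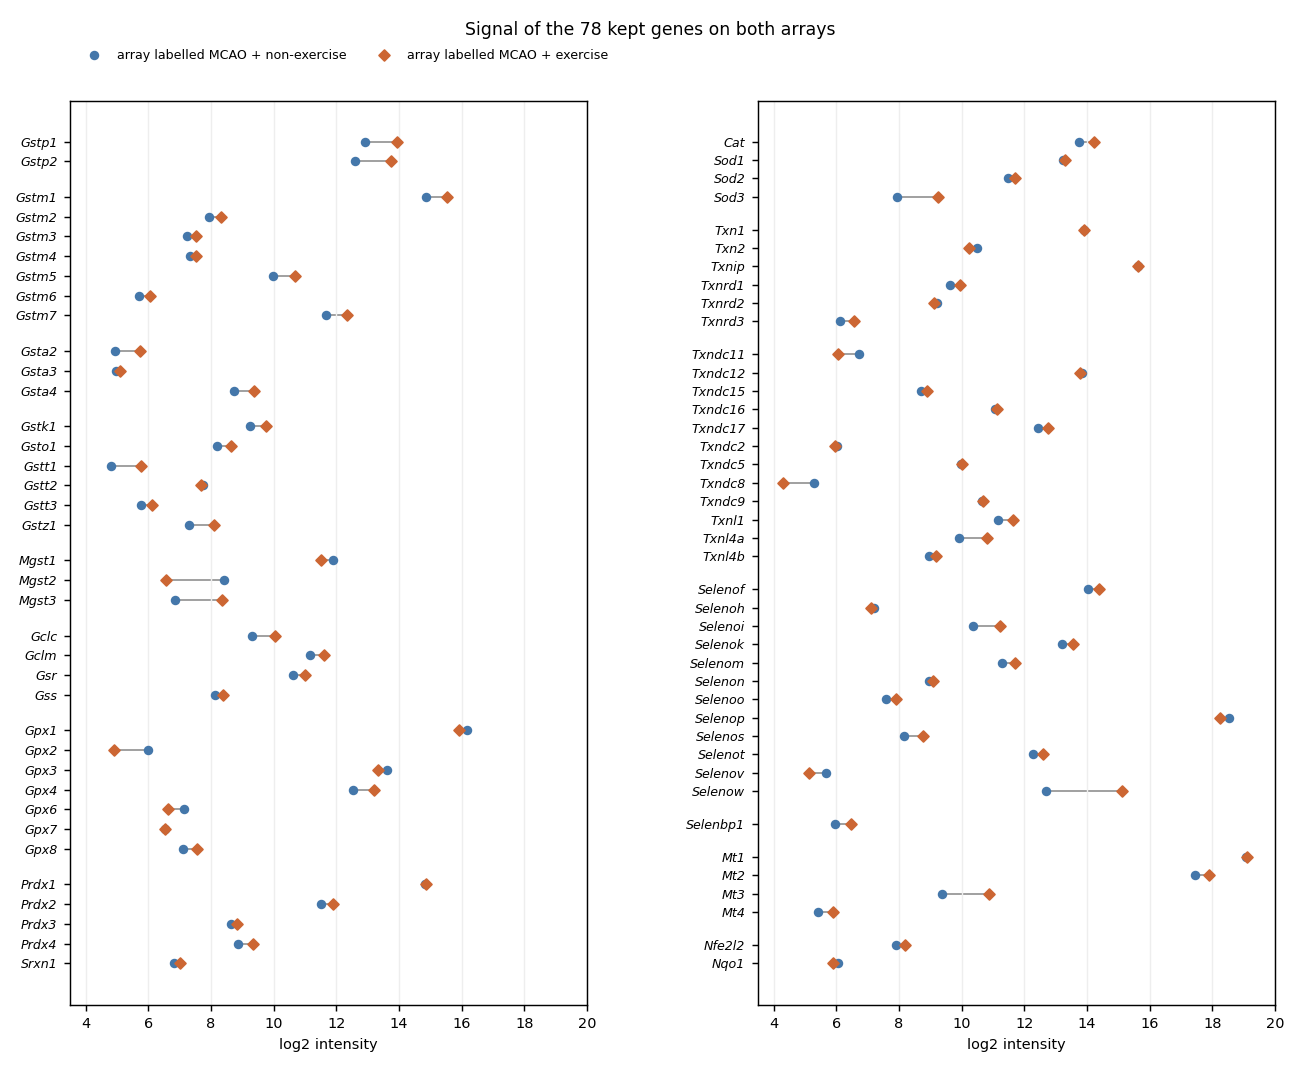
Log2 intensity (horizontal axes) of the 78 kept genes, grouped by family, on the array labelled MCAO + non-exercise (circles) and the array labelled MCAO + exercise (diamonds), 1 array each. Most pairs lie close together, whereas Selenow, Mt3, Mgst2, Mgst3 and Sod3 are spread wide.

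**Figure D2:**
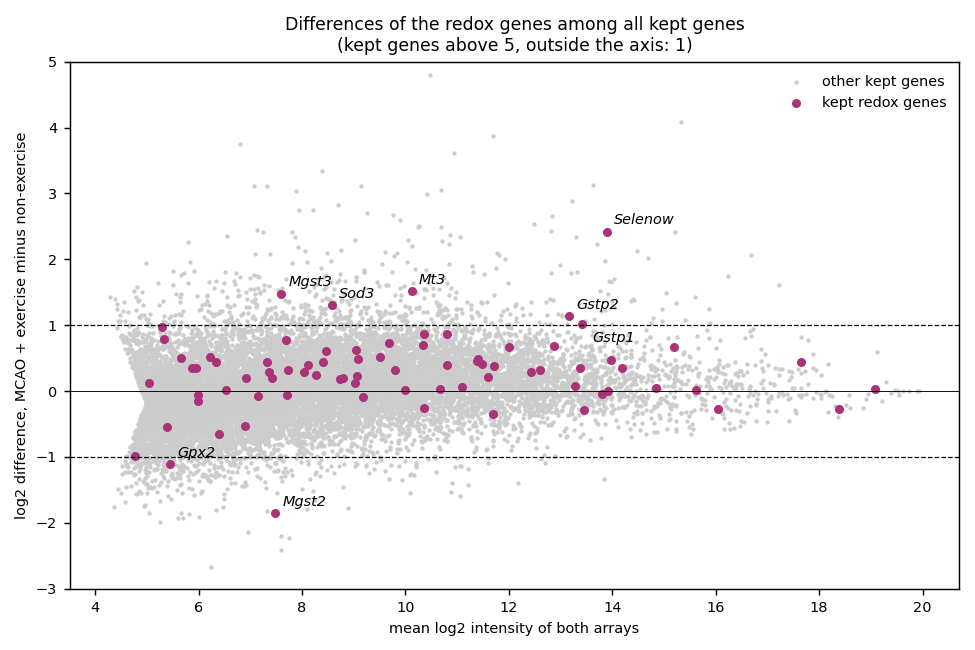
Log2 difference, exercise minus non-exercise array (vertical axis), against mean log2 intensity (horizontal axis) for 15196 kept genes in grey and the 78 kept redox genes in purple, with 1 gene outside the axis and dashed lines at 1 and -1. The 8 labelled redox genes lie past the lines, and the others lie between them.

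Kept glutathione transferases of the soluble classes were nearly all brighter on the exercise array. Of 18 kept genes, 17 had a difference above 0, also under median centring, quantile normalization and loess correction, and the median was 0.57. The background filter favoured this sign, since Gsta2, Gsta3 and Gstt1 passed it only through the exercise array. The soluble transferases left out, Gsto2, Gstp3 and Gstt4, differed by -0.21, -0.31 and -0.04. Gstp1, which conjugates electrophiles and also restrains JNK signalling, had log2 values of 12.90 on the non-exercise array and 13.92 on the exercise array, a difference of 1.02 or 2.03-fold. Gstp2 had 12.60 and 13.73, a difference of 1.13 or 2.19-fold. Both genes were thus about as far apart on the arrays as each other, and since the genes are close copies, reads of one transcript by the probes of the other could not be told apart. Gstp3 was below background on both arrays, at 3.92 and 3.62. Differences were also placed in order with those of the 500 kept genes whose mean signal was most alike (neighbours in level), which describes these arrays and is no test. In that order Gstp2 was number 18 and Gstp1 number 29 from the top. Gstp1 was at 0.84 after quantile normalization and 0.88 after loess correction, and Gstp2 at 0.95 and 0.98, so neither passed 1 there.

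The mu-class genes, which lie in a cluster on chromosome 3, all had differences above 0, from 0.19 to 0.70, with a median of 0.40. Gstm1, a mu-class transferase abundant in astrocytes, had log2 values of 14.86 and 15.53, a difference of 0.67. Gstm5 had 9.98 and 10.69, the largest difference of the class at 0.70, and Gstm7 had 11.67 and 12.34, with 0.67. The other 4 genes, Gstm2, Gstm6, Gstm3 and Gstm4, had differences of 0.40, 0.34, 0.29 and 0.19. These genes are close paralogs and probes may be shared in part, so 7 differences of like sign are not 7 separate observations. In the alpha class, Gsta4, which clears the lipid peroxidation product 4-hydroxynonenal, had 8.74 and 9.36, a difference of 0.63. Gsta2 and Gsta3 were above background only on the exercise array, where they were at least 1.57-fold and at least 1.02-fold brighter than the background level of the other array.

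Among the remaining soluble classes, Gstz1, which isomerizes maleylacetoacetate in tyrosine breakdown, had log2 values of 7.30 and 8.09, a difference of 0.78. Gstk1, the kappa-class enzyme of mitochondria and peroxisomes, differed by 0.51 and Gsto1, the omega-class enzyme that reduces dehydroascorbate, by 0.44. In the theta class, Gstt1 was above background only on the exercise array, at 5.78, and was at least 1.63-fold brighter there. Gstt3 differed by 0.35 and Gstt2 by -0.06, the only kept soluble transferase below 0.

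The membrane-bound transferases went apart, and this was the widest split within a family. Mgst2, which also makes leukotriene C4, had log2 values of 8.41 on the non-exercise array and 6.56 on the exercise array, a difference of -1.85 or 3.61-fold. Only 2 of its 500 neighbours in level had a lower difference. Mgst3, a related transferase and peroxidase, had 6.86 and 8.34, a difference of 1.48 or 2.79-fold, and only 4 neighbours had a higher one. Mgst1, abundant in the endoplasmic reticulum and outer mitochondrial membrane, had 11.88 and 11.52, a difference of -0.35. The order of the signals of Mgst2 and Mgst3 on each array says nothing of their transcript levels, as probe sets differ in brightness. Both calls held under all 8 processing alternatives, with Mgst2 from -1.96 to -1.56 and Mgst3 from 1.26 to 1.48.

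Enzymes that make and reduce glutathione all had differences above 0 under every scaling, with a median of 0.43, and none passed 1. Gclc, the catalytic subunit of glutamate-cysteine ligase and the rate-limiting step, had log2 values of 9.32 and 10.04, a difference of 0.73. Its modifier subunit Gclm had 11.15 and 11.61, a difference of 0.46, glutathione reductase Gsr differed by 0.40 and glutathione synthetase Gss by 0.24. Genes that feed and drain the pool had no common direction. Of 15 kept genes for cystine uptake and glutathione turnover, 8 were above 0 and 7 below, with 0 past 1 or -1 and a median of 0.02, or -0.09 after median centring. Ggct, which cleaves gamma-glutamyl peptides, differed by 0.87, Abcc5, an exporter of organic anions, by -0.66, and Slc3a2, the partner chain of the cystine transporter, by -0.12. A list of glutaredoxins, glyoxalases and genes placed beside them had 8 kept genes. Of these 7 were above 0, or 6 after each scaling, and the median was 0.20. Grhpr, a reductase of glyoxylate and neither a glutaredoxin nor a glyoxalase, was higher by 1.27. Glo1 differed by 0.57 and Glrx by -0.27.

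The glutathione peroxidases were split by gene. Gpx4, which reduces lipid hydroperoxides in membranes and blocks ferroptosis, had log2 values of 12.53 and 13.21, a difference of 0.68. Gpx1, the cytosolic enzyme, had 16.18 and 15.92, a difference of -0.27, and Gpx3, the secreted plasma form, had 13.60 and 13.32, a difference of -0.28. So the membrane lipid enzyme was brighter on the exercise array, whereas the cytosolic and the secreted enzyme were dimmer, and these 3 signs were the same under each scaling. Of the weaker signals, Gpx8 and Gpx7, peroxidases of the endoplasmic reticulum, differed by 0.44 and 0.01, with Gpx7 at -0.10 after median centring. Gpx6, known from olfactory epithelium, differed by -0.53. Gpx2, an enzyme of gut epithelium, had 6.0 on the non-exercise array and was not above background on the exercise array at 4.89, so it was at least 2.16-fold brighter on the non-exercise array. Its difference of -1.11 became -0.64 with an offset of 32 before log2, and -0.94 and -0.93 after quantile normalization and loess correction. Over the 7 kept peroxidases the median was -0.27.

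Prdx1 and Sod1, abundant enzymes of the cytosol, barely differed. Prdx1, the peroxidase of cytosol and nucleus, had log2 values of 14.82 and 14.87, and Sod1, the copper and zinc enzyme, had 13.23 and 13.31. Their differences of 0.05 and 0.08 were below 0 after median centring, quantile normalization and loess correction. Prdx4 of the endoplasmic reticulum differed by 0.48, Prdx2 of the cytosol by 0.39 and Prdx3 of mitochondria by 0.18. Srxn1, which repairs overoxidized peroxiredoxins, differed by 0.20. Catalase, the hydrogen peroxide enzyme of peroxisomes, had 13.73 and 14.21, a difference of 0.47, and the mitochondrial dismutase Sod2 differed by 0.22. Sod3, which is secreted and bound to extracellular matrix, stood apart with 7.92 and 9.23, a difference of 1.31 or 2.48-fold. It was number 16 from the top among its neighbours in level and stayed above 1 in all alternatives, from 1.19 to 1.31.

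Thioredoxins and their reductases had the family median nearest to 0, at 0.01 over 6 kept genes, and it was below 0 after each scaling. Txn1, the cytosolic thioredoxin, had log2 values of 13.91 on the non-exercise array and 13.92 on the exercise array. Txnip, which binds and inhibits it, had 15.61 and 15.62. The mitochondrial pair were both below 0, with Txn2 at 10.48 and 10.22, a difference of -0.26, and its reductase Txnrd2 at -0.09. The cytosolic reductase Txnrd1 differed by 0.32 and Txnrd3, known from testis, by 0.44. Genes named for a thioredoxin domain were as mixed, with 8 of 12 above 0 and a median of 0.04, and 5 of 12 above 0 after median centring, where the median was -0.07. Txnl4a, a component of the spliceosome, had 9.92 and 10.79, the largest difference at 0.87, and Txnl1 and Txnl4b differed by 0.49 and 0.23. Txndc17, Txndc15, Txndc16, Txndc9 and Txndc5 ranged from 0.02 to 0.32. Txndc12, an oxidoreductase of the endoplasmic reticulum, had 13.83 and 13.79, Txndc2 differed by -0.06 and Txndc11 by -0.65. Txndc8, known from spermatids, had 5.28 on the non-exercise array and was below background on the exercise array, which gives at least 1.30-fold.

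Selenow, a small selenoprotein of the thioredoxin-like fold that is abundant in muscle and brain, had the largest difference of all 78 genes. Its log2 values were 12.69 on the non-exercise array and 15.11 on the exercise array, a difference of 2.42 or 5.36-fold. Only 2 neighbours in level had a higher difference, and its difference ran from 2.25 to 2.42 over the alternatives. The next among the Seleno genes was far below it. Selenoi, which makes phosphatidylethanolamine, had 10.36 and 11.23, a difference of 0.87, and Selenos, part of the machinery that removes misfolded proteins from the endoplasmic reticulum, differed by 0.60. Other proteins of that compartment, Selenom, Selenok, Selenof, Selenot and the calcium-linked Selenon, differed by 0.41, 0.36, 0.35, 0.29 and 0.12, with Selenon at -0.02 after quantile normalization and -0.03 after loess correction. Selenoo, a mitochondrial enzyme, differed by 0.32, the nuclear Selenoh by -0.08 and the testis gene Selenov by -0.55.

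Selenop, the secreted selenium carrier of plasma, went the other way. It had log2 values of 18.53 and 18.26, a difference of -0.28, which was 0.08 after quantile normalization. Of the 12 Seleno genes, 9 were above 0 and the median was 0.33. Genes that make selenocysteine or take up selenium, with other selenoproteins, had a median of 0.10, or about 0 after each scaling, and 8 of 14 kept genes were above 0. Dio2, the deiodinase with which astrocytes activate thyroid hormone, was higher by 1.26, from 8.03 to 9.29. Lrp8, a receptor for Selenop, differed by -0.67 and Secisbp2l, a relative of the factor that reads the recoded codon, by 0.89. Selenbp1, which binds selenium without being a selenoprotein, differed by 0.51. The 19 kept genes whose mouse protein holds selenocysteine and the 59 whose protein does not both had a median of 0.32, with 12 and 49 of them above 0.

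Among the metallothioneins, Mt3 alone passed 1. This brain-enriched form, known as growth inhibitory factor, had log2 values of 9.36 on the non-exercise array and 10.88 on the exercise array, a difference of 1.52 or 2.86-fold, number 9 from the top among its neighbours in level. Mt2, an injury-inducible form, had 17.44 and 17.88, a difference of 0.44. Mt1, its inducible partner, had 19.06 and 19.09, a difference of 0.04 that was -0.07 after median centring. The highest value on either array was 19.93, and how far signals near it are compressed was not tested. Mt4, known from stratified epithelium, had 5.41 and 5.90.

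**Figure D3:**
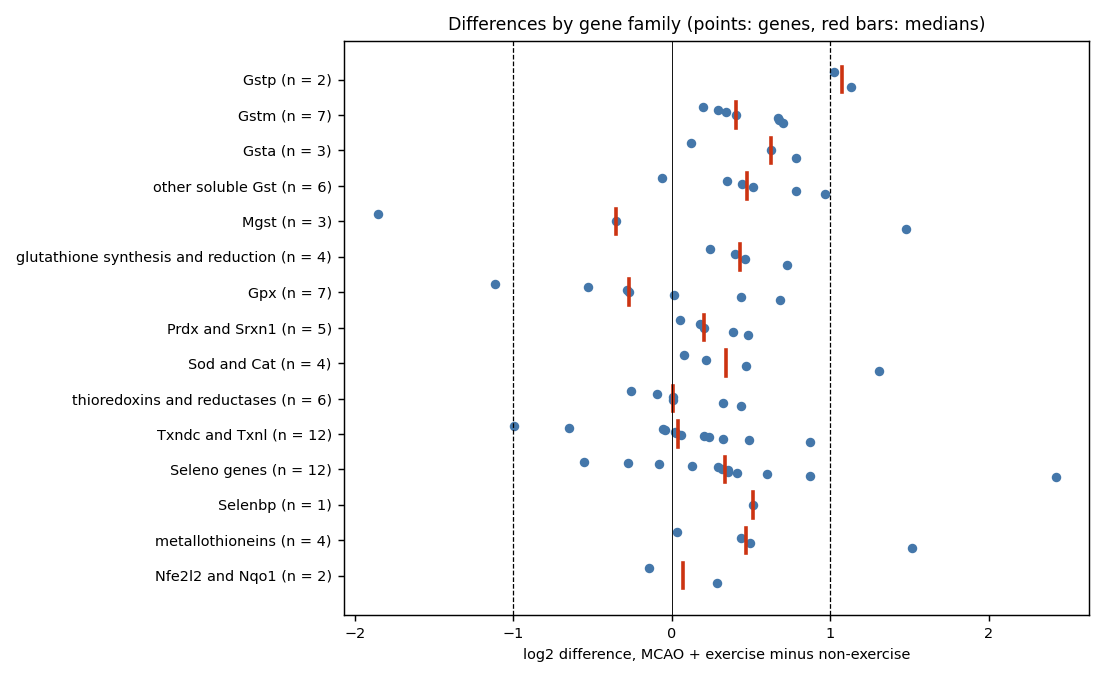
Log2 difference, exercise minus non-exercise array (horizontal axis), of each kept gene (points) by family, with the family median as a red bar and dashed lines at 1 and -1. Soluble transferases lie right of 0 except Gstt2 and did so under each scaling, Mgst genes lie on both sides, and thioredoxins lie around 0, where the side of 4 of 6 genes was kept under each scaling.

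Neither NRF2 itself nor Nqo1 came near 1 or -1. Nfe2l2 had log2 values of 7.90 and 8.19, a difference of 0.28, and Nqo1, a quinone reductase and standard NRF2 target, had 6.05 and 5.91, a difference of -0.15 that was above 0 after quantile normalization. Of 13 kept regulators of NRF2, 10 were above 0, or 6 after median centring, with a median of 0.10 that was below 0 after each scaling. Keap1, the adaptor that sends NRF2 to degradation, differed by 0.92, Bach2, a repressor at the same elements, by -0.26 and Sqstm1, which binds Keap1, by 0.48. Of 16 other target genes, 12 were above 0 and 3 below, with a median of 0.22 and 0 past 1 or -1. Taldo1, of the pentose phosphate pathway, differed by 0.82 and Hmox1, heme oxygenase, by -0.58. The ferritin chain Fth1 had 19.89 on both arrays, near the highest value of 19.93. It was among 52 probe sets with equal values on both arrays, and whether a limit of the scale made them equal was not tested.

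Only part of the 78 kept genes was assigned a place in the cell, and the soluble transferases, Mgst genes, Selenow and metallothioneins were not. The 13 kept genes assigned to the endoplasmic reticulum had a median difference of 0.29, with 11 above 0 (84.6%). The 12 assigned to the soluble cytosol had a median of 0.22, with 10 above 0 (83.3%). Of all kept genes, 53.5% were above 0. The 5 of mitochondria had a median of 0.18 with 3 above 0. Of the 3 secreted proteins, Sod3 was above 0 and Gpx3 and Selenop were below. Under the other scalings, Gpx7, Selenon, Txndc5 and Txndc16 of the endoplasmic reticulum, Prdx1, Sod1, Txn1 and Nqo1 of the cytosol, and Selenop changed sign in at least 1 case. Of the genes assigned a place, Sod3 alone passed 1 or -1. The other called genes, Selenow, Mt3, Mgst3, Gstp2, Gstp1, Mgst2 and Gpx2, were assigned none. Over all 78 genes, 65 kept their sign under the 3 scalings, 51 above 0 and 14 below.

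Markers of the sorted cells and of other cell types also differed between the arrays, in both directions. Their signs follow the deposited labels. For the markers Slc1a3, Aldoc, Mobp and Camk2a, which the study also lists, the sign is opposite to that in its lists. All 10 astrocyte markers were above background and above 0, with a median of 1.02, or 9 of 10 after median centring, and their summed signal was 17.07 and 17.69 on the log2 scale. The 9 named oligodendrocyte and myelin markers were all above 0 under each scaling, with a median of 0.82 and sums of 19.55 and 20.33. Of 10 neuron markers 8 were above 0, with a median of 1.08 and sums of 13.32 and 15.42. Syt1 and Gad1 were lower by more than 1, at -1.60 and -1.04. The sums lean on the brightest neuron marker, Camk2a, which alone had 12.06 and 15.19. Microglia and macrophage markers had 7 of 10 below 0, a median of -0.28 and sums of 20.13 and 19.91. All 10 endothelial markers were below 0, with a median of -0.31 and sums of 17.21 and 16.89. The named markers of these lists were above background on both arrays, except the neuron marker Gad2, which was below it on the non-exercise array. Of the other sets, 6 of 8 kept neutrophil markers were above 0, with a median of 0.97 and sums of 14.76 and 14.75. These sums lean on the brightest, Csf3r, which alone had 14.67 and 14.52, while the differences ran from -0.54 for Mpo to 2.83 for Ngp. Among erythroid markers 1 of 3 kept was above 0, with the brightest, Alas2, at 10.02 and 9.70. The neutrophil markers Ltf and Elane and the erythroid marker Epb42 were below background on the non-exercise array, and Camp was on both. Markers of myelin, microglia and endothelium were thus above background in both pools. The part of these cell types in the difference of any redox gene was not tested, and fewer cells of a type and less RNA per cell cannot be told apart.

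**Figure D4:**
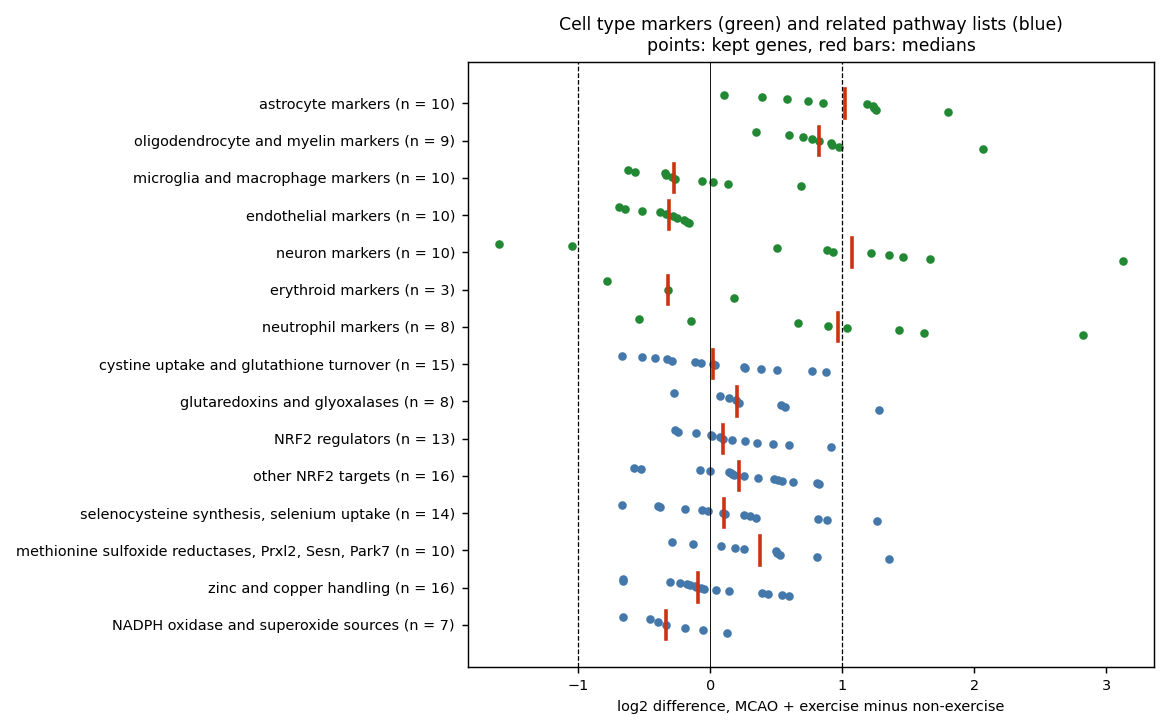
Log2 difference, exercise minus non-exercise array (horizontal axis), of kept genes on lists of cell type markers (green) and of pathways next to the redox genes (blue), with medians as red bars and dashed lines at 1 and -1. Astrocyte, oligodendrocyte, neuron and neutrophil markers have medians near 1 (1.02, 0.82, 1.08 and 0.97), and those of microglia and endothelium have medians below 0 (-0.28 and -0.31), signs that held under each scaling.

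The processing decided some of the calls. Selenow, Mt3, Mgst3, Sod3 and Mgst2 stayed past 1 or -1 in all 9 settings. Gstp2 did so in 7 of 9, Gstp1 in 6 of 9 and Gpx2 in 5 of the 8 settings that kept it. Gstt1 passed 1 after quantile normalization (1.14) and loess correction (1.16), although it was above background on only 1 array, and Txndc8 passed -1 after median centring (-1.10).

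**Figure D5:**
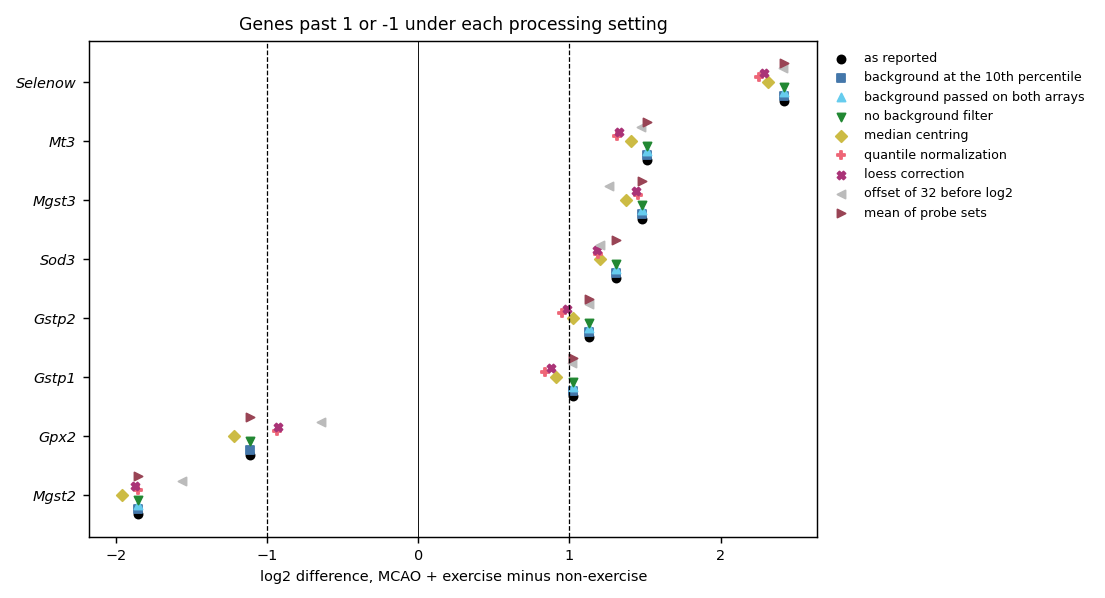
Log2 difference, exercise minus non-exercise array (horizontal axis), of the 8 genes past 1 or -1, with a symbol for each processing setting. Selenow, Mt3, Mgst3, Sod3 and Mgst2 stay outside the dashed lines at 1 and -1, whereas Gstp1, Gstp2 and Gpx2 cross them.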

How the data were processed

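Astrocyte RNA of 2 pools was measured on 1 Clariom S mouse array each. The deposited values are linear intensities of 22142 probe sets, normalized by the authors' contracted service with GCCN-SST-RMA, which corrects for probe GC content, rescales the signal and summarizes probes. Affymetrix Expression Console and RMA stand in the submitters' processing notes with no version. The genome build is not given in the sources used here. Intensities ran from 5.53 to 999964 on the non-exercise array and from 6.30 to 999964 on the exercise array, and log2 was taken without further scaling. The number of arrays limits the precision.

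GEO's platform annotation gives 1 gene symbol to 19527 probe sets, several to 0 and none to 2615. These make 19494 genes, of which 33 had more than 1 probe set and were represented by the brightest. Each redox gene had 1 probe set, none of them with equal values on both arrays. Genes that match the symbol rule could all be named, and of other lists those with the largest, the smallest and the brightest values. The genes and lists were chosen with earlier results of these data known. No difference between the arrays was tested. Upstream windows came from the RefSeq table of GRCm38.p6, where 76 of 83 genes matched, and were aligned globally with Biopython 1.88. Alternatives were a background at the 10th percentile, passed on both arrays, or none, median centring, quantile normalization, loess (span 0.3), an offset of 32 and the mean of probe sets. The code that makes the calls was tested on simulated data with known differences. Python 3.11.15, NumPy 2.4.6, pandas 2.3.3, statsmodels 0.14.6 and matplotlib 3.10.9 were used.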

Additional observations from a re-analysis of the deposited data

How the results depend on the processing

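Filters on background, the mean of probe sets and the offset left the number of redox genes higher by more than 1 at 6, and median centring, quantile normalization and loess correction gave 5. Of all kept genes, 3.77% were higher by more than 1. The share was 2.85% after median centring, 3.38% after quantile normalization, 3.40% after loess correction and 2.65% with the offset. The number lower by more than 1 was 2, and it was 1 with background passed on both arrays, after quantile normalization, after loess correction and with the offset of 32, since Gpx2 was then left out or ended above -1. It was 3 after median centring, and 0 among genes with a mean of at least 8 on the log2 scale (added once the values were known). Without Selenow, Gstp1 and Gstp2, also added later, 3 genes were higher. The median difference of 0.32 was 0.21 after median centring, 0.19 after quantile normalization and 0.21 after loess correction. The median of all kept genes was then -0.07 after median centring and 0.00 after the other two, in place of 0.04. Over all kept genes, 359 were lower by more than 1, against 230 with background passed on both arrays, 575 after median centring and 99 with the offset. No called gene changed sign. No paired analysis was possible because each group had 1 array. Signals near background limit Gpx2, Gsta2, Gsta3, Gstt1 and Txndc8 to bounds on 1 array.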

Other observations

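Lists of neighbouring pathways were also measured. NADPH oxidase and superoxide sources, largely genes of phagocytes, had 6 of 7 kept genes below 0 under each scaling, with a median of -0.34 and 0 past 1 or -1. Cybb, the catalytic chain of the phagocyte oxidase, had log2 values of 15.67 on the non-exercise array and 15.21 on the exercise array, its cytosolic factor Ncf4 13.33 and 12.66, and Rac2 11.48 and 11.61. Markers of microglia and macrophages had a median of -0.28, and their part in this was not tested.

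Repair genes for oxidized methionine, with peroxiredoxin-like genes, sestrins and Park7, had 8 of 10 kept genes above 0, or 6 after quantile normalization, and a median of 0.38. Prxl2a, a peroxiredoxin-like gene, was higher by 1.36, from 11.76 to 13.12 by the deposited labels, a sign opposite to that in the study's lists, and Msrb3 had a difference of -0.29. Zinc and copper handling genes had 6 of 16 above 0 and a median of -0.09, with 0 past 1 or -1. Mtf1, the zinc sensor that acts on metallothionein genes, differed by 0.59, the copper chaperone Cox17 by 0.54 and the copper pump Atp7a by -0.66.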
